A study of Homo sapiens with 8 samples.

Results

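The deposited tables of gene expression in SLINKY-depleted renal carcinoma cells held 18991 rows that carry no RefSeq or GENCODE identifier, each a long noncoding RNA (lncRNA) model that the authors took from earlier predictions assembled from RNA-seq of other tissues and cell types, named with the prefix TCONS. The 200 of these rows with the highest mean over the 8 libraries are described here, out of 75378 rows in all. They were chosen by that mean alone, in FPKM (mapped fragments scaled to transcript length and to library size), so their level is a description and not a finding. The samples were the clear cell renal cell carcinoma (ccRCC) lines A498, grown in DMEM, and 786-O, grown in RPMI-1640. Each line had 2 libraries treated with a non-targeting control siRNA (NTC) and 1 library with each of 2 siRNAs against SLINKY, a long intergenic noncoding RNA (lincRNA), all at 50 nM for 16 h by the labels. Both are single established lines and every library, controls included, was transfected. No label says whether the libraries of a group came from separate cultures, so p-values measure only the spread between these libraries, which may be technical. In the knockdown groups this spread also holds any difference between the 2 siRNAs, which the tests treat as replicates. The line and its culture medium cannot be told apart.

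The targeted lincRNA was lower with both siRNAs in both lines. SLINKY stood at 14.6 and 16.1 FPKM in the A498 NTC libraries and at 1.64 and 3.01 FPKM with the siRNAs, and at 1.45 and 1.39 FPKM in the 786-O NTC libraries against 0.0569 and 0.594 FPKM. NTC and knockdown libraries did not overlap in either line, with a log2 difference of -2.47 over the lines and an exact two-sided permutation p of 0.0556, the smallest that 36 arrangements within lines allow. Of 8 renal markers, 7 stood at 1 FPKM or more in every library and CA9, a hypoxia-induced surface enzyme of ccRCC, was under 1 FPKM in every library. All 5 blood markers and all 3 endothelial markers were under 1 FPKM in every library, and among 4 muscle and fibroblast and 2 neuronal markers the highest value was 3.05 FPKM, for SNAP25. Mapped reads, estimated from the authors' confidence intervals, ranged from 25100000 to 64500000 a library. Of 3 assembled entries that overlap SLINKY, none was among the highest 200, the nearest ranking 767 with a mean of 2.06 FPKM.

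Assembled catalogues of this kind join overlapping RNA-seq fragments into transcript models and keep those without a coding potential. Processed pseudogenes are copies of messenger RNAs that were reverse transcribed and inserted back into the genome, and most arose from abundant housekeeping mRNAs such as those of ribosomal proteins. A short read from such an mRNA can also be placed on its copy wherever both share the read's sequence.

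Most of the 200 entries lay on pseudogenes. By the GENCODE annotation of the same build (hg19), 167 of the 200 (83.5%) overlapped a pseudogene exon, against 19.7% of the 18909 assembled entries that could be placed on that annotation. For 153 of the 167, the pseudogene bases matched the transcript of a protein-coding gene elsewhere in the genome with at least 90% identity over at least 100 bases, and these 153 entries matched 113 genes with a median identity of 95.6%. Among the highest 50 entries, 44 were of this kind. Of the remaining 47, 14 overlapped a pseudogene exon without such a match, 21 an exon of an annotated lncRNA, 4 an exon of a coding gene and 1 the gene RN7SL40P, 5 matched the mitochondrial 16S ribosomal RNA MT-RNR2, and 2 overlapped no annotated exon.

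The nearness of copy and gene is visible in stretches of 120 bases from 4 entries, chosen because the results return to the genes they match. Each assembled entry is printed first and the coding gene it matches below it (for the last pair the mitochondrial gene), and capitals mark the bases at which they differ. The first pair shows the highest entry of all, at chr9:74622859-74622978 on the minus strand of hg19, and differs from HSPB1, a small heat shock protein, at 3 bases. The next comes from chr9:135894873-135894992 on the plus strand and has no difference from EEF1A1, the elongation factor that brings aminoacyl-tRNA to the ribosome. The third, chr1:160864770-160864889 on the plus strand, differs at 2 bases from SMS, spermine synthase of polyamine metabolism. The last pair sets 1 of the MT-RNR2 copies, chr3:96336864-96336983 on the minus strand, beside the mitochondrial gene, with 4 differences.
TCONS_l2_00029401: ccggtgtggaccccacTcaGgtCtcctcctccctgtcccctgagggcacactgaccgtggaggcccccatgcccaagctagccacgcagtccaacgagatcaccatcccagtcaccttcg
HSPB1: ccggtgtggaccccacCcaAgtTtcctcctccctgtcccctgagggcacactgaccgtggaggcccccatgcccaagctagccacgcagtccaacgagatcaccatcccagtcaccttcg
TCONS_l2_00030085: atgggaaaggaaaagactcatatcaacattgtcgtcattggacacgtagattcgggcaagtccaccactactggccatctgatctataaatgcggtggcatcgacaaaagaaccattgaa
EEF1A1: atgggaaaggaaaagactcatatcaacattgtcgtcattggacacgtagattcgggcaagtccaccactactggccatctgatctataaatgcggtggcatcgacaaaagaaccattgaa
TCONS_l2_00000663: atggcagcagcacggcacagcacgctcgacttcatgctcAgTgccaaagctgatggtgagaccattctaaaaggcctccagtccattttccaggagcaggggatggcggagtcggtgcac
SMS: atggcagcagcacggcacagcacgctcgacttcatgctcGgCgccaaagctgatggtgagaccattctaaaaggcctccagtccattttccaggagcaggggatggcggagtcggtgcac
TCONS_00006916: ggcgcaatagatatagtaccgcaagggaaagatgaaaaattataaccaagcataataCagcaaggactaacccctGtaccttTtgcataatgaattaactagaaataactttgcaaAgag
MT-RNR2: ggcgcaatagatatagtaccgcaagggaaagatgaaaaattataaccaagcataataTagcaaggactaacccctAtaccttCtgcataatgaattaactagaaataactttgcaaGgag

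The reads were single-end and 36 bases long. Across the 153 entries a median of 21.3% of the 36-base windows of the pseudogene part were found without any difference in the coding gene's transcripts, and a median of 69.4% aligned with at most 2 differences. In 122 of the 153, more than 50% of windows had at most 2 differences. Where a window has no difference, reads from the mRNA and from the copy cannot be told apart, so the levels of these entries are uncertain as measures of the pseudogenes themselves.

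By locus, 30 of the 200 entries (15.0%) shared at least 1 base with a RefSeq row of the same files, against 23.2% of assembled entries. A coding NM row was shared by 3 entries, at MARVELD1, DISP1 and FOXD1, and a noncoding NR row by 27. The NR rows included the lncRNAs MIR4435-2HG, GIHCG, LINC01116, TP53TG1, BOLA3-DT, OIP5-AS1, NEAT1 and CRNDE and the pseudogenes LSP1P4, LSP1P5, SBDSP1, CCT6P1 and UQCRBP1. With at least 50% of the entry's span required, 25 remained. A GENCODE row was shared by 44 entries, and 170 entries overlapped no RefSeq row. The 200 entries made up 172 separate loci, since 51 of them shared bases with another of the 200, in 23 loci. Their spans were short, with a median of 1226 bp against 6546 bp for all assembled entries, and 62.5% spanned under 2000 bp against 21.3%.

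The distribution of levels was steep. The 200 entries held 88.3% of the summed mean FPKM of all assembled entries and the highest 10 held 41.3%. The mean was 6924 FPKM for the first entry, 51.8 FPKM for the median of the 200 and 17.2 FPKM for the last, while 37.5% of assembled entries had a mean of 0. At the edge of the list, TCONS_l2_00027831 and TCONS_l2_00030700 stood at means of 17.4 and 17.2 FPKM just inside, and TCONS_l2_00030600 and TCONS_l2_00012111 at 17.0 and 16.8 FPKM just outside. For scale, 10 well-known lncRNAs were read, with their RefSeq and GENCODE rows summed. GAS5 stood at 274 FPKM and SNHG1 at 101 FPKM, both above the lowest of the 200, while MALAT1 and NEAT1 were at 4.37 and 4.41 FPKM. These sums leave out assembled rows at the same loci, and an assembled entry at NEAT1, TCONS_l2_00005321, is itself among the 200.

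The highest 10 entries were copies of heat shock, ribosomal protein, ferritin and elongation factor mRNAs, with 1 exception. TCONS_l2_00029401, in HSPB1P1, held 8231 and 6479 FPKM in the A498 NTC libraries, 7176 and 7026 FPKM with siRNA 1 and siRNA 2, and in the same order 6248, 7468, 6891 and 5869 FPKM in 786-O. TCONS_l2_00029402, which shares most of its span with the former, ranged from 1777 to 2756 FPKM. Neither separated the lines, and HSPB1 itself averaged 2181 FPKM. TCONS_l2_00000739, a copy of RPS27A, which is made as a fusion with ubiquitin, stood between 1178 and 1303 FPKM in A498 and between 1468 and 1786 FPKM in 786-O, without overlap. TCONS_l2_00006336, a copy of RPL26, held 1128 to 1368 FPKM in A498 and 1038 to 1446 FPKM in 786-O, with overlap. TCONS_l2_00016171, a copy of RPS19, was a little higher in A498, at 1095 to 1219 FPKM against 971 to 1004 FPKM. The copies of RPS2 (TCONS_l2_00011130) and RPL3 (TCONS_l2_00008237) lay the other way, the former between 760.0 and 856 FPKM in A498 and between 1168 and 1289 FPKM in 786-O, the latter between 781 and 829.8 FPKM and between 1114 and 1251 FPKM. TCONS_l2_00030171, a copy of the ferritin light chain FTL, stood between 959.9 and 1057 FPKM in A498 and between 522 and 560.5 FPKM in 786-O. TCONS_l2_00026417, a copy of EEF1A1, held 517 to 539.7 FPKM in A498 against 774 to 848 FPKM in 786-O. The exception, TCONS_00029072 on chromosome 21, overlapped no annotated exon and is taken up with the knockdown below.

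**Figure D1:**
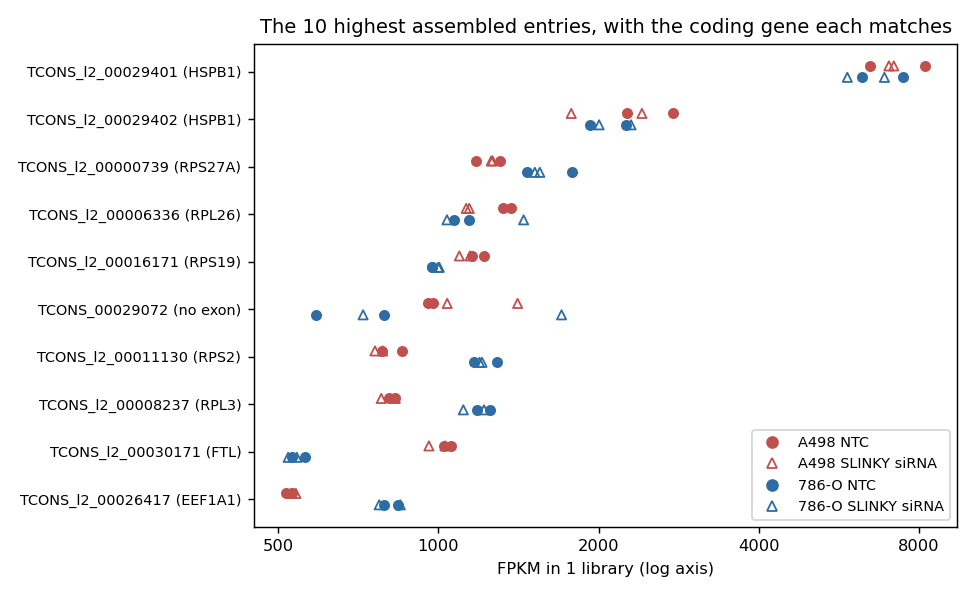
FPKM of the 10 highest assembled entries in each of the 8 libraries, on a log axis, with the matched coding gene in brackets. Filled circles are NTC and open triangles SLINKY siRNA libraries. The FTL copy is higher in all A498 libraries and the RPS2, RPL3 and EEF1A1 copies in all 786-O libraries, while the HSPB1 copies overlap.

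Between the lines, 147 of the 200 entries differed by limma (moderated test on log2(FPKM + 0.1), Benjamini-Hochberg adjusted p under 0.05 over 17633 rows with a mean of at least 1 FPKM). That is 73.5% of the 200, against 64.3% of all rows tested, so a large share of calls is common to the tables as a whole. The direction was less even than over all rows: 103 entries were higher in 786-O and 44 in A498, where 32.0% and 32.3% of all rows were called in these directions. The median log2 difference, A498 minus 786-O, was -0.24 for the 200 and -0.01 for all rows tested. The libraries of the lines did not overlap for 139 entries (69.5%), and did not overlap for 61.1% of all rows tested. Of the 147, 34 differed over 2-fold, 13 higher in A498 and 21 in 786-O. The median size of the log2 difference was 0.52 for the 200 and 0.58 for all rows tested.

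Grouped by the coding gene they match, a grouping made after the values were seen, the copies of ribosomal protein mRNAs were mainly higher in 786-O. Of 36 such entries, 25 were higher in 786-O, 4 higher in A498 and 7 did not pass, with a median log2 difference of -0.53. Beside these and the counts that follow, 32.0% of all rows tested were called higher in 786-O and 32.3% in A498. Of 14 copies of translation factor mRNAs, 10 were higher in 786-O and 1 in A498, again with a median of -0.53. Of 14 copies of mRNAs of nuclear RNA-binding and related proteins, such as NPM1, YBX1, HNRNPA1 and PTMA, 12 were higher in 786-O and none in A498, with a median of -0.61. All 3 ferritin copies were higher in A498, by log2 differences from 0.86 to 0.92. Of 10 chaperone copies 6 were higher in 786-O and 4 did not pass, and of 8 copies of actin, tropomyosin and related cytoskeletal mRNAs 4 were higher in 786-O and 4 did not pass. Several entries here match the same gene and so are not separate observations.

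**Figure D2:**
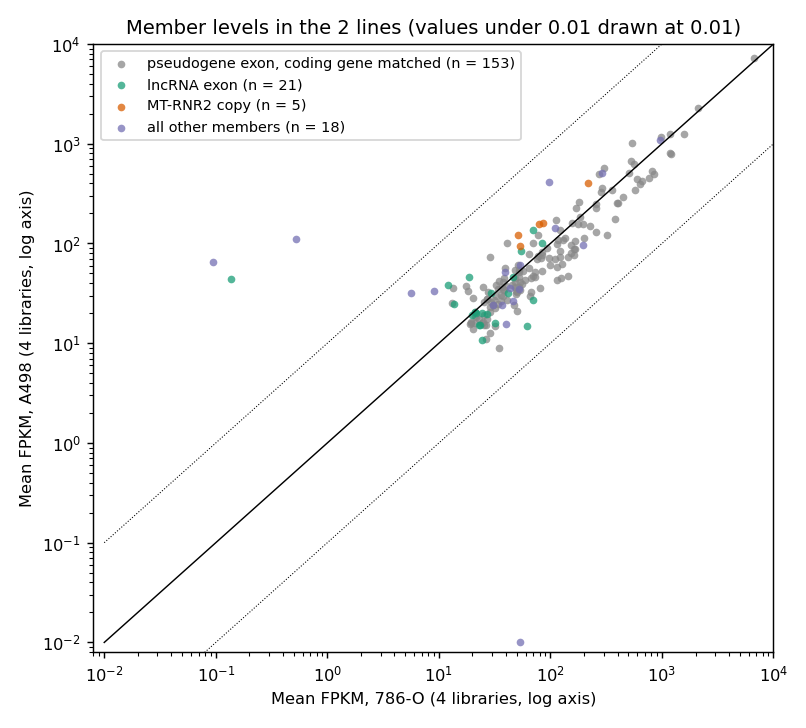
Mean FPKM of each entry in A498 against 786-O, 4 libraries a line, both axes log, with values under 0.01 drawn at 0.01. The solid line marks equal levels and the dotted lines a 10-fold difference. Most entries lie close to the solid line, and 3 entries far above and 1 far below the dotted lines are the line-specific ones. The 3 entries on chromosome Y are left out.

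The line difference of the copies was close to that of the gene they match. Coding genes had NM rows in the same libraries for 152 of the 153 entries, and these rows were summed. Of 112 such genes, 78 were among the highest 10% of RefSeq genes at 1 FPKM or more. GASK1A was listed at 0 FPKM in every library. Over the 152 entries, the log2 line differences of entry and gene had a Pearson r of 0.92 and a Spearman rho of 0.93, given as a description since the points share the same 8 libraries and, where sequences match, the same reads. The median distance between the log2 differences was 0.05, and 133 of the 152 lay within 0.25. Of 113 copies called between the lines, 111 had the direction of their gene. Levels were less alike, with a Pearson r of 0.49 between log2 mean levels. The entry stood at a median of 34.8% of its gene, and 38 entries stood above it.

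The 6 copies of EEF1A1 show the pattern most plainly. They lie at 5 loci, with TCONS_l2_00030085 and TCONS_l2_00029098 overlapping in EEF1A1P5, and their means ran from 68.8 to 671 FPKM, yet their log2 line differences ran only from -0.67 to -0.62, beside -0.63 for EEF1A1. The 4 copies of RPL10, a large-subunit protein, ran from -0.79 to -0.70 beside -0.69 for the gene. The 3 copies of NPM1, nucleophosmin of the nucleolus, ran from -1.01 to -0.96 beside -0.99. The 2 copies of FTH1, the iron-storing ferritin heavy chain, stood at 0.86 and 0.90 beside 0.87. Copies of other genes lay farther off. The 4 copies of TPM4 ran from -0.62 to -0.32 beside -0.76 for the gene. The 3 copies of HNRNPA3 ran from -0.24 to -0.19 beside -0.32. Over 0.5 from their gene were 5 entries, named after their values were seen, which match NBEAL1, GASK1A, UBE2V1, UBB and PSMA6. GASK1A was listed at 0 FPKM in every library and NBEAL1 averaged 0.182 FPKM, so neither gives a reliable line difference to compare. In all, 6 of the copied genes averaged under 10 FPKM, so this limit also touches genes whose entries lay closer. FANCB, at 0.842 FPKM, stood at -1.07 beside -0.97 for its entry. RPSA averaged 4.76 FPKM, while its 2 copies averaged 276 and 119 FPKM. Of the 3 overlapping UBB entries, for polyubiquitin, the line differences ran from 0.19 to 1.51 beside 0.61 for the gene. TCONS_l2_00003732, in RPL12P27, stood at -1.26 beside 0.07 for NBEAL1, its nearest coding match, whose name differs from that of the pseudogene.

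**Figure D3:**
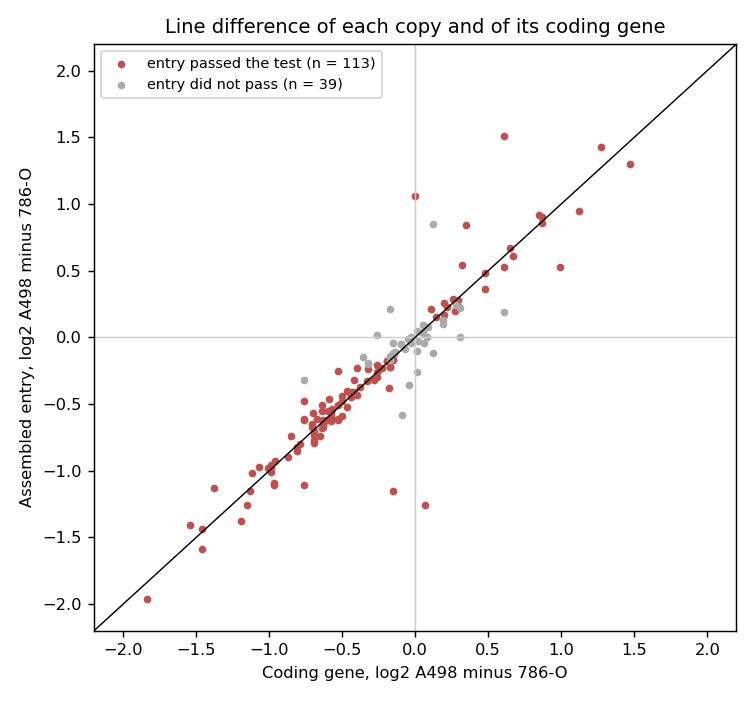
Log2 difference between the lines, A498 minus 786-O, of each pseudogene entry against that of the coding gene it matches, 152 entries. Red points passed the limma test as entries and grey points did not. The points follow the line of equal differences, with 133 within 0.25 of it.

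Apart from the line-specific entries described below, the 5 largest line differences in each direction among called entries without overlap included those of 5 pseudogene entries and 1 lncRNA entry. TCONS_l2_00014590, in IFITM3P9, a pseudogene named after an interferon-induced membrane protein, held 34.5, 31.2, 31.7 and 31.5 FPKM in A498 and 5.29, 5.19, 6.10 and 6.07 FPKM in 786-O, 5.69-fold higher in A498 (log2 difference 2.49 ± 0.07 SE, adjusted p = 3.78e-07 by limma). TCONS_l2_00024711, in the class I MHC pseudogene HLA-S, averaged 417 ± 30.7 FPKM in A498 and 97.4 ± 11.4 FPKM in 786-O (SD, n = 4 each). In the other direction, TCONS_l2_00026102, on an unnamed lncRNA, averaged 15.0 ± 3.16 FPKM in A498 and 61.7 ± 3.63 FPKM in 786-O (SD, n = 4 each), and the GENCODE row at its locus averaged 20.3 FPKM and 56.5 FPKM. TCONS_l2_00022365, a copy of the nucleosome-binding protein HMGN2, stood at 8.57 to 9.16 FPKM in A498 and 34.1 to 36.5 FPKM in 786-O. The SMS copies TCONS_l2_00024815 and TCONS_l2_00000663 were lower in A498 by log2 differences of -1.59 ± 0.09 and -1.44 ± 0.04 (SE), beside -1.46 for SMS. In all 6 the libraries of the lines did not overlap.

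Entries specific to 1 line were few. With the lowest library of a line at 1 FPKM or more and at least 10 times the highest library of the other line, 3 of the 200 entries were specific to A498 and 1 to 786-O. Over all rows tested the same rule held for 3.19% and 1.07%, beside 1.5% and 0.5% of the 200. As the rule uses these values, they are described without a test.

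TCONS_l2_00020563 and TCONS_l2_00020562, on chromosome 4 at 69917224-69929778 and 69917072-69955324, overlap each other and an annotated exon of UGT2B7 upstream of its RefSeq row, a UDP-glucuronosyltransferase that conjugates steroids and drugs in liver and kidney. TCONS_l2_00020563 held 119, 117, 112 and 103 FPKM in A498 and 0.834, 0.468, 0.621 and 0.166 FPKM in 786-O. TCONS_l2_00020562 held 63.1, 66.4, 57.4 and 71.0 FPKM in A498, and in 786-O 0.0850 and 0.290 FPKM in NTC 2 and siRNA 2, with the other two libraries at 0. Every A498 library stood far above every 786-O library in both. TCONS_l2_00020562 also covers an unnamed pseudogene there. The RefSeq row of UGT2B7 ran from 14.3 to 17.6 FPKM in A498 and from 0.0973 to 0.180 FPKM in 786-O.

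TCONS_00020158, at chr12:1609657-1613590, lies on the lncRNA LINC00942 and held 45.4, 44.1, 44.4 and 41.1 FPKM in A498 against 0.145, 0.0804, 0.156 and 0.171 FPKM in 786-O, a 317-fold difference of means. The value of NTC 2 in A498 came from a fit the authors' software marked as failed. The GENCODE row of LINC00942 averaged 12.9 FPKM in A498 and 0.0416 FPKM in 786-O. TCONS_l2_00012889, at chr19:15962877-15965591, lies on CLEC4OP, a pseudogene of a C-type lectin. It was listed at 0 in 3 A498 libraries and at 1.40e-05 FPKM in NTC 1, and held 49.7, 70.4, 44.4 and 49.7 FPKM in 786-O. The software marked this row as low data in every library, and the GENCODE row at the locus ran from 55.7 to 76.7 FPKM in 786-O with an A498 mean of 0.113 FPKM.

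**Figure D4:**
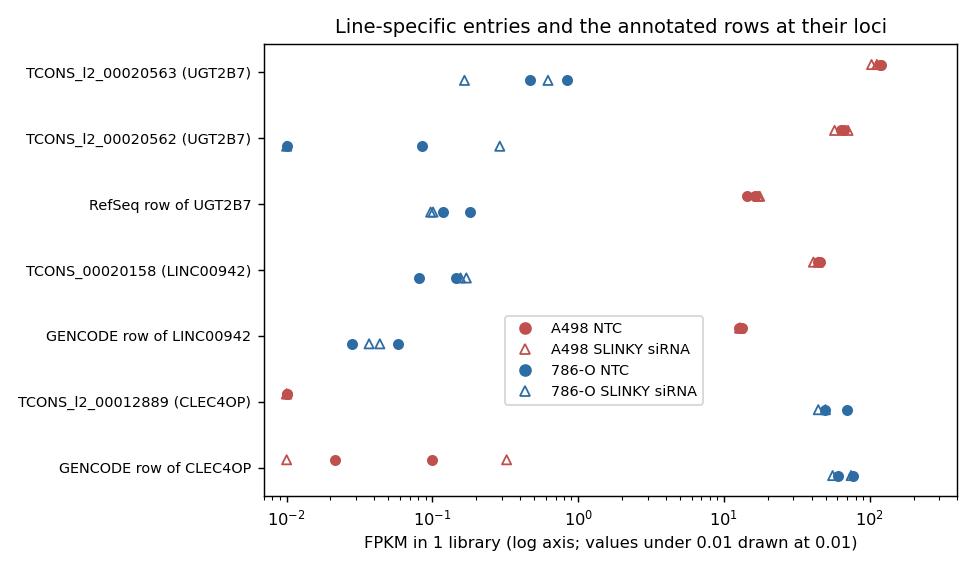
FPKM in each library of the 4 line-specific entries and of the annotated rows at their loci, log axis, with values under 0.01 drawn at 0.01. Circles are NTC and triangles SLINKY siRNA libraries. Each annotated row lies on the same side as its entry, and NTC and knockdown libraries of a line lie together.

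The loci of LINC00942 and CLEC4OP and of LUCAT1, a lncRNA discussed next, are shown by 120 bases of an annotated exon inside the entry, on the annotated strand, which for all 3 is the minus strand of hg19. They come from chr12:1611627-1611746, chr19:15962877-15962996 and chr5:90609921-90610040.
LINC00942: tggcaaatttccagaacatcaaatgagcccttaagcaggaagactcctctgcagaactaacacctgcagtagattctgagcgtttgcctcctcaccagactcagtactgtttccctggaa
CLEC4OP: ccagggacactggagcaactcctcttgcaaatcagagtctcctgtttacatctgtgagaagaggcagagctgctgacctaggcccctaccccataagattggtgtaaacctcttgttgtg
LUCAT1: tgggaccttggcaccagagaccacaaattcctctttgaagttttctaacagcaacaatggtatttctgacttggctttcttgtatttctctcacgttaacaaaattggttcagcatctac

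The 21 entries on annotated lncRNA exons were lower than the copies, with a median of 24.0 FPKM against 58.6 FPKM. Between the lines, 6 were higher in A498, 9 were higher in 786-O and 6 did not pass the test. Among all rows tested, 32.3% were called higher in A498 and 32.0% in 786-O. LUCAT1, a stress-induced lncRNA, was represented by TCONS_00010992, which held 31.2, 47.1, 29.2 and 45.1 FPKM in A498 and between 7.36 and 15.4 FPKM in 786-O, without overlap (log2 difference 1.66 ± 0.27 SE, adjusted p = 0.00165 by limma). This entry spans 296 bp. The GENCODE row of LUCAT1 was lower in level, with means of 4.50 FPKM in A498 and 1.52 FPKM in 786-O. MIR4435-2HG, host of a microRNA, carried the 2 overlapping entries TCONS_l2_00014804 and TCONS_l2_00014803. The former held 107 to 156 FPKM in A498 and 56.9 to 81.9 FPKM in 786-O, and the latter 70.6 to 102 FPKM and 47.7 to 61.4 FPKM, with a low data mark in every library. At TP53TG1, a lncRNA induced through p53, the entry TCONS_00012855 was higher in A498, at 42.7 to 51.0 FPKM against 16.8 to 19.3 FPKM, also marked low data in every library. The GENCODE row of TP53TG1 did not separate the lines, with 59.1, 36.1, 31.5 and 11.5 FPKM in A498 and 27.6 to 34.5 FPKM in 786-O. CRNDE, a lncRNA raised in colorectal tumors, was higher in 786-O, with TCONS_00024663 at 7.67 to 13.7 FPKM in A498 against 20.5 to 26.8 FPKM, and its GENCODE row averaged 9.76 and 24.5 FPKM. At LINC00973 the entry TCONS_00005559 had the same direction, at 28.6 to 36.6 FPKM against 40.1 to 43.2 FPKM. The GENCODE row at its locus was much lower and nearly level, averaging 1.17 FPKM in A498 and 1.20 FPKM in 786-O. GIHCG and LINC01116 did not separate the lines, TCONS_00020811 averaging 46.1 FPKM in both lines and TCONS_00004507 averaging 31.6 ± 3.51 and 29.5 ± 3.49 FPKM (SD, n = 4 each). The NEAT1 entry TCONS_l2_00005321, a part of a nuclear lncRNA that builds paraspeckles, ran from 12.7 to 16.6 FPKM in A498 and from 16.1 to 31.3 FPKM in 786-O, and passed the test (adjusted p = 0.0372 by limma) although the libraries overlap. The RefSeq row of NEAT1 at its locus also overlapped, at 2.83 to 4.02 FPKM in A498 and 3.38 to 4.73 FPKM in 786-O.

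The 5 MT-RNR2 copies share 1 locus on chromosome 3, and all 5 were higher in A498, with log2 differences from 0.84 to 1.27. TCONS_00007198 held 363, 427, 403 and 426 FPKM in A498 and 214, 169, 202 and 284 FPKM in 786-O. TCONS_00006917 held 112 to 139.8 FPKM and 43.3 to 65.5 FPKM. The mitochondrial gene itself was not analysed here. Of the 200 entries, 3 lay on chromosome Y and are counted but not described.

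Knockdown of SLINKY left no entry past the threshold. Over both lines, 0 of the 200 differed between the 4 knockdown and 4 NTC libraries by limma, where 0.00567% of all rows did, and the lowest adjusted p of an entry was 0.691. At an unadjusted p under 0.05, 14 of the 200 (7%) passed against 7.21% of all rows. In A498 alone 0 of 200 passed beside 0% of all rows, and 18 (9%) had an unadjusted p under 0.05 (2 higher, 16 lower) against 5.27% of all rows. In 786-O alone 0 of 200 passed beside 0.113% of all rows, and 7 (3.5%) had an unadjusted p under 0.05 (6 higher, 1 lower) against 4.07%. The median standard error of an entry's log2 difference was 0.08 over both lines. The knockdown effect differed between the lines for 0 of 200 entries beside 0.0681% of all rows, with 10 (5%) at an unadjusted p under 0.05 against 3.67%. Without siRNA 2 in 786-O, which leaves siRNA 1 alone and assumes that it varies like the other groups, 1 entry passed this test, TCONS_00029068.

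The siRNA libraries moved away from NTC about as far as the NTC libraries from each other. A fold of 1.25 between single libraries was passed between the NTC pair by 24 of the 200 entries in A498 and by 33 in 786-O, where 24.8% and 24.2% of all rows passed. Against the NTC library of the same number, siRNA 1 and siRNA 2 passed it for 22 and 25 entries in A498, beside 25.7% and 26.9% of all rows, and for 29 and 33 entries in 786-O, beside 26.1% and 24.5%. Against the mean of the NTC pair, which varies less than a single library, the counts were 16 and 24 in A498, beside 22.5% and 26.4% of all rows, and 21 and 27 in 786-O, beside 23.9% and 22.7%. The median size of the log2 difference was 0.11 between the NTC libraries of A498 and 0.13 in 786-O, and with a single NTC library as reference it was 0.12 and 0.11 for the siRNAs in A498 and 0.11 and 0.13 in 786-O.

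**Figure D5:**
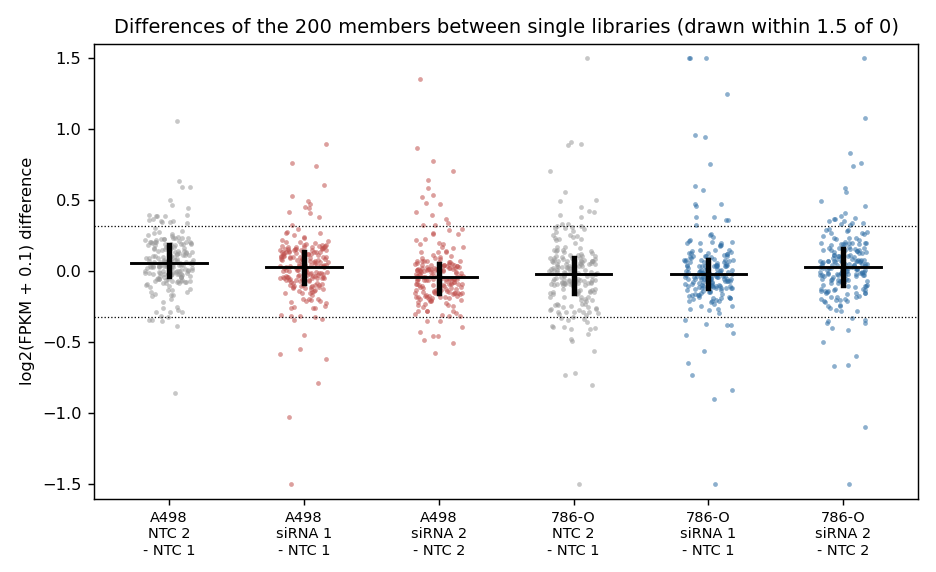
Log2(FPKM + 0.1) differences of the 200 entries between the NTC libraries of each line (grey) and between each siRNA library and the NTC library of the same number (color), with points beyond 1.5 drawn at 1.5. The bar and the thick line give the median and the middle 50% of entries, and dotted lines mark 1.25-fold. The spread of the siRNA differences is like that of the NTC pair.

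No entry passed the 1.25-fold threshold against the NTC mean in the same direction with both siRNAs in both lines, where 0.544% of all rows did so upward and 0.635% downward. Within A498, 3 entries were past it upward with both siRNAs (4.39% of all rows) and 1 downward (5.26%), and within 786-O 5 upward (4.46%) and 0 downward (4.22%). These entries were picked after their values were seen. In 786-O they included TCONS_00007196, an MT-RNR2 copy, at 51.4 and 38.8 FPKM in the NTC and 58.9 and 65.9 FPKM in the siRNA libraries. The MT-RNR2 copies of that locus did not move together in 786-O. TCONS_00006916 held 75.5 and 68.6 FPKM and then 82.2 and 87.6 FPKM with the siRNAs. TCONS_00006917 went the other way, from 49.0 and 65.5 FPKM to 48.5 and 43.3 FPKM, and TCONS_00006556 stayed within its NTC pair. The SDCBP copy TCONS_l2_00003387 stood at 35.5 and 35.2 FPKM in the 786-O NTC libraries and at 49.2 and 44.3 FPKM with the siRNAs, whereas in A498 it held 94.7 and 103 FPKM and then 102 and 99.7 FPKM. TCONS_00023381 on OIP5-AS1 held 12.5 and 23.5 FPKM and then 29.8 and 28.4 FPKM in 786-O, with an NTC pair as far apart as the siRNA difference and a low data mark in every library. In A498 the YWHAZ copy TCONS_l2_00003231 held 26.7 and 34.4 FPKM with NTC and 38.5 and 38.6 FPKM with the siRNAs. None of these had an adjusted p under the threshold in any of the knockdown fits with all libraries.

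Some overlapping entries varied widely between single libraries. On chromosome 21, TCONS_00029068 (9826394-9827584) contains TCONS_00029072 (9826938-9827584). TCONS_00029068 held 480.2, 477, 434 and 665 FPKM in A498 and 382, 448 and 337 FPKM in the 786-O libraries NTC 1, NTC 2 and siRNA 2, but 0.0117 FPKM with siRNA 1. In that same library TCONS_00029072 held 1704 FPKM, against 589, 789.7 and 722 FPKM in the other 786-O libraries and 956, 979, 1039 and 1409 FPKM in A498. The result given above for TCONS_00029068 in the fit without siRNA 2 of 786-O rests on this siRNA 1 library alone. On chromosome 2, of the 3 overlapping UBB copies, TCONS_l2_00014932 held 90.7 and 89.2 FPKM with NTC and 44.6 and 65.2 FPKM with the siRNAs in A498, and in 786-O 34.7 and 9.38 FPKM with NTC and 22.1 and 49.0 FPKM with the siRNAs. Beside it TCONS_l2_00014930 held 18.6 FPKM in A498 siRNA 1 and 14.6 FPKM in 786-O siRNA 2, and between 51.3 and 87.9 FPKM in the other six libraries. The third entry, TCONS_l2_00014931, stayed between 164 and 297 FPKM.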

How the data were processed

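RNA-seq libraries (single-end, 36 bases) were aligned to hg19 and quantified by the authors, whose processing notes name TopHat2 2.0.0 and Cufflinks 2.0.2. The files deposited by the authors hold FPKM for each row with a 95% confidence interval and a fit status. They hold neither strand, exon structure nor read counts, so depth was estimated from the interval widths, which assume Poisson counts and imply a median of 784 reads an entry, with 23 entries under 100. RefSeq rows were named from RefSeq symbols (96.6% matched).

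Entries and lists were chosen with earlier results of these data known. The named entries were the 10 highest, the line-specific ones, the 5 largest line differences a direction that passed the test without overlap, any past a knockdown test or past 1.25-fold in all siRNA libraries, and those at the edge of rank 200. Other entries in the text, among them most of those on annotated lncRNA exons, were picked outside this rule and were not among the named entries recomputed below. Tests used limma 3.58.1 with a variance trend on log2(FPKM + 0.1), over 17633 rows with a mean of at least 1 FPKM, with all 8 libraries and line and knockdown as terms, with their interaction for the difference in effect, and with the 4 libraries of a line alone for knockdown within it. A fold change on this scale understates the change of low rows. The fit was tested on simulated data. Entry spans were intersected with GENCODE 44 exons on hg19 (bedtools 2.31.1) and their bases aligned to coding and mitochondrial rRNA transcripts (BLAST+ 2.17.0, at least 90% identity and 100 bases), leaving out unnamed and read-through genes. Protein isoforms were summed by symbol. Alternatives were other pseudocounts, no filter on low values, other scaling, leaving out each library, rows of 200 bp or more and a replicate block.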

Additional observations from a re-analysis of the deposited data

Results flagged for a closer look

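In 40 groups of 4 libraries, 2 a named entry, a library stood apart from the other 3 by Dixon's test in 2, and chance flags about 1 in 20 such groups. TCONS_l2_00012889 on CLEC4OP was listed at 1.40e-05 FPKM in NTC 1 of A498 and at 0 in the other 3 A498 libraries. TCONS_l2_00022365, the HMGN2 copy, stood at 36.5 FPKM in NTC 1 of 786-O against 34.1 to 34.4 FPKM in the other 3 libraries of that line.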

How the results depend on the processing

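The count of entries that differed between the lines ran from 132 to 149 under the 6 alternatives other than leaving out a library, against 147, and from 137 to 148 when each library was left out in turn, and 131 entries passed in every setting, with no change of direction. The counts of 0 for knockdown over both lines, in A498 and in 786-O stayed at 0 in every setting run. The count with a different knockdown effect was 0 in every setting except without siRNA 2 of 786-O, where it was 1, and so ran from 0 to 1. Of 280 recomputed line differences of 20 named entries, 278 stayed on their side of the threshold and 2 passed it newly. The log2 differences of the line-specific entries depend on the pseudocount, that of LINC00942 (TCONS_00020158) being 5.30 with 1 FPKM and 8.25 with 0.01 FPKM against 7.54. With 5 times in place of 10 times as the rule, or NTC libraries only, the number of line-specific entries was 5 and 4 against 4. Replicate numbers are shared by groups, but no label says that they mark a batch, and in the knockdown groups the number is that of the siRNA. Libraries with the same number did not deviate together (correlations from -0.03 to 0.04). With the replicate number as a replicate block, 148 entries differed between the lines, 142 of them shared with the 147, and none between knockdown and NTC. Ranking by the median in place of the mean kept 198 of the 200. Depth limits the 23 entries whose intervals imply under 100 reads, and the 9 with a low data mark in every library.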
